A study of Mus musculus with 7 samples.

Results

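The genes of the citrulline, arginine and nitric oxide cycle were followed in islets of pregnant mice. The 10 members were ASS1, ASL, NOS1, NOS2, NOS3, ARG1, ARG2, DDAH1, DDAH2 and SLC7A2, found by name among the 34082 genes of the expression table. ASS1 and NOS1 were chosen by their lower values in the Prlr+/- mice in the comparison described here, so their values are given as a description, with no test. The other 8 were chosen as the rest of the cycle and not by their values, and they carry the tests. All 10 were present in the table, and 7 had a mean of at least 0.5 TPM (transcripts per 1000000), the level at which a gene was tested. NOS2, ARG2 and DDAH1 were under it.

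The comparison asks how losing 1 Prlr allele everywhere differs from losing it in β-cells, where Prlr encodes the prolactin receptor. The islets of 4 βPrlR+/- and 3 Prlr+/- mice, collected at day 15 of pregnancy, gave 1 RNA library each. The βPrlR+/- mice carry floxed Prlr and Pdx1CreER, a tamoxifen-inducible Cre driven by the promoter of Pdx1, a gene of the pancreas and its β-cells, and they received tamoxifen. Their floxed line had been back-crossed with C57BL/6J mice. The Prlr+/- mice, on a C57BL/6 background, lack 1 Prlr allele in every tissue, carry no Cre and received no tamoxifen, so genotype, Cre and tamoxifen cannot be told apart. The groups share the pregnancy, the sex and a reduced Prlr dose in β-cells, and no mouse with intact Prlr was part of the comparison. By the labels the mice were 3 to 4 months old, whereas the methods give an older range. The labels also describe the deletion in β-cells as homozygous, against heterozygous in the paper, and title those samples CkoWt without explaining the term. No batch is named. Mice are numbered here in the order of their labels.

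Citrulline is the by-product when a nitric oxide synthase makes nitric oxide from arginine. Argininosuccinate synthase (ASS1) joins citrulline to aspartate, argininosuccinate lyase (ASL) splits the product into arginine and fumarate, and the arginine can be used again. Arginases (ARG1, ARG2) remove arginine as ornithine and urea, and SLC7A2 carries arginine into the cell. The dimethylarginine dimethylaminohydrolase family (DDAH1, DDAH2) is named for breaking down methylated arginines that inhibit the synthases. Arginine is known to stimulate insulin secretion, and in islets nitric oxide can come from nerves, endothelium, macrophages or endocrine cells.

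The size factors that put the mice on one scale ran from 0.882 to 1.11, and a value divided by its factor is called scaled TPM. The gene marking the genotypes, PRLR, had 55.7, 38.4, 47.3 and 38.8 scaled TPM in the βPrlR+/- mice, compared with 36.1, 51.1 and 35.1 in the Prlr+/- mice, so its level did not separate the groups (exact permutation test, two-sided p = 0.571, n = 4 and 3). That value covers whole transcripts and does not show whether the deleted bases were absent. β-cell markers dominated the RNA, with a summed level of 451600 to 715400 scaled TPM over 10 genes, as islets should show. Digestive enzymes and other acinar markers summed to 2036 to 18030 in the βPrlR+/- mice and 5653 to 15100 in the Prlr+/- mice, so exocrine RNA was present in all 7 and varied within groups. Of 14840 genes tested with limma, 0.0674% were called at an adjusted p under 0.05 (9 lower and 1 higher in Prlr+/- mice).

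Across the cycle, ASS1 and NOS1 lay below every βPrlR+/- mouse in each of the 3 Prlr+/- mice, which is the pattern they were selected on. None of the 5 other members tested passed the test, 0 of them had groups that did not overlap, and at an unadjusted p under 0.05 the count was also 0. The backgrounds are 0.0674% of all genes for the call, 4.95% for groups that do not overlap and 4.52% for an unadjusted p under 0.05, and with 5 genes a count of 0 is near each of these shares. The median log2 fold change of those 5 was -0.07 (Prlr+/- over βPrlR+/-), beside 0.00 over all genes tested. ARG2, DDAH1 and NOS2 also overlapped between the groups.

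**Figure D1:**
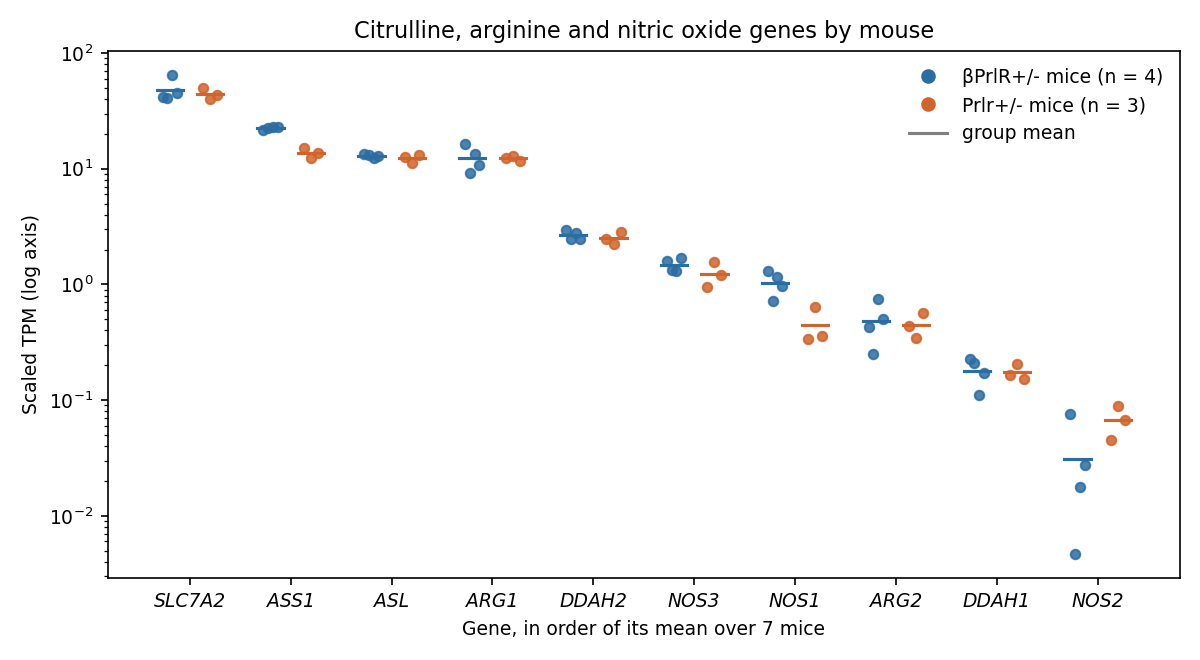
Scaled TPM (log axis) of the 10 genes, ordered by their mean over 7 mice, with 1 point per mouse and a bar at the mean of each group. ASS1 and NOS1, chosen for this, are the genes whose Prlr+/- points all lie below the βPrlR+/- points; the other 8 overlap.

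TPM is scaled for transcript length, so levels can be set beside each other. SLC7A2 was the highest member with a mean of 46.7 scaled TPM over the 7 mice, followed by ASS1 with 18.8, ASL with 12.7 and ARG1 with 12.4. A gap separated these from DDAH2 with 2.60, NOS3 with 1.38, NOS1 with 0.783, ARG2 with 0.468, DDAH1 with 0.177 and NOS2 with 0.0468. Neighbours whose ranges overlapped were ASS1 and ASL, ASL and ARG1, NOS3 and NOS1, and NOS1 and ARG2. Within single mice ASS1 exceeded ASL and NOS3 exceeded NOS1 in 7 of 7, NOS1 exceeded ARG2 in 5 of 7, and ASL exceeded ARG1 in only 4 of 7. The islets therefore held the recycling enzymes and the transporter at far higher RNA levels than any of the synthases.

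ASS1, the enzyme that takes citrulline back towards arginine, had 21.8, 22.6, 22.7 and 23.0 scaled TPM across the βPrlR+/- mice (numbers 1 to 4), compared with 15.2, 12.3 and 13.7 across the Prlr+/- mice (numbers 1 to 3). The βPrlR+/- mice sat in a narrow band and every Prlr+/- mouse was well under it. The mean was 22.6 ± 0.517 (SD, n = 4) against 13.8 ± 1.45 (SD, n = 3), a difference of -39.0% in the mean and a log2 fold change of -0.68 on the log2(scaled TPM + 1) scale. The coefficient of variation was 2.29% and 10.5%. The value rests on 1 transcript, NM_007494.3, since no other ASS1 transcript is listed. The 250 bases before its start are shown because this gene has the widest gap between the groups among the members.

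ASS1 upstream bases, chr2:31470020-31470269, plus strand: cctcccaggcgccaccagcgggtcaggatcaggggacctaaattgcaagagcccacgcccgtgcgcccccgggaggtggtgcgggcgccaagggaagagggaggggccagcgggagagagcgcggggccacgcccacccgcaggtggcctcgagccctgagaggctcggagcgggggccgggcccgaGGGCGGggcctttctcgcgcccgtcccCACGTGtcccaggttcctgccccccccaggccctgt

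This stretch, from RefSeq on GRCm38.p6, runs 5′ to 3′ and ends at the base before the annotated start. Capitals mark the matches to the motifs searched for: the GC box GGGCGG, which begins 63 bases before the start, and the E-box CACGTG, which begins 36 bases before it. Both strands were searched. The GC box occurs in 32.7% of 32851 promoters of the same length and the E-box in 6.02%, and they do not overlap each other here. The stretch is rich in G and C, with 75.6% beside a median of 52.4% over all promoters. The letters TTCNNNGAA, the form bound by STAT5 downstream of the prolactin receptor (in 7.02% of promoters), TATAAA (12.4%) and CCAAT (33.8%) are not in this window, nor are a full estrogen response element (0.0639%) or a p53 half-site (7.13%). Of the 10 members 4 were in the promoter table. DDAH2 held TTCNNNGAA 58 bases and GGGCGG 72 and 9 bases before its start, and DDAH1 a p53 half-site 22 bases before its start.

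ASL, which completes the return of citrulline to arginine, had 13.4, 13.1, 12.4 and 12.9 scaled TPM in the βPrlR+/- mice, compared with 12.7, 11.3 and 13.2 in the Prlr+/- mice. The groups overlapped, with Prlr+/- mouse 2 below every βPrlR+/- mouse and the other two among them. Means were 13.0 ± 0.423 (SD, n = 4) and 12.4 ± 0.977 (SD, n = 3), with a log2 fold change of -0.06, a standard error of 0.07 and a 95% interval of -0.22 to 0.10 (limma, adjusted p = 0.9999). The log2 fold change of ASS1, -0.68, lies outside this interval, but ASS1 was chosen by its value, so no test of the difference was made. Because ASS1 was lower and ASL close to level, the ASS1 to ASL ratio was 1.63, 1.72, 1.84 and 1.78 in βPrlR+/- mice and 1.20, 1.09 and 1.04 in Prlr+/- mice, which repeats the choice of ASS1 and is no separate evidence. Most of the ASL value, 66.7% to 87.5%, came from transcript NM_133768.4.

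NOS1, the synthase known from neurons, was low in all mice, with 1.31, 0.725, 1.15 and 0.959 scaled TPM in the βPrlR+/- mice, compared with 0.339, 0.636 and 0.359 in the Prlr+/- mice. The groups were apart by a small margin, between βPrlR+/- mouse 2 and Prlr+/- mouse 2. The mean was 1.04 ± 0.253 (SD, n = 4) against 0.445 ± 0.166 (SD, n = 3), a difference of -57.1% and a log2 fold change of -0.49. At this level the added 1 shrinks the fold, and with 0.1 added in its place the log2 fold change was -1.07. Transcript NM_008712.3, of 8 listed, held 73.4% to 100% of the value, and its levels alone overlapped between the groups, at 0.532 to 1.21 and 0.333 to 0.557. The gap for the whole gene therefore depends on the minor transcripts of βPrlR+/- mouse 2.

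NOS3, the endothelial synthase, had 1.596, 1.35, 1.30 and 1.68 scaled TPM in the βPrlR+/- mice, compared with 0.957, 1.57 and 1.20 in the Prlr+/- mice. Prlr+/- mouse 2 lay among the βPrlR+/- mice, and the other two Prlr+/- mice lay below them. The log2 fold change was -0.15 with a standard error of 0.11 and a 95% interval of -0.42 to 0.12 (limma, adjusted p = 0.9999). The value was shared about equally by 2 transcripts. XM_006535639.3 ran from 0.707 to 0.917 scaled TPM in the βPrlR+/- mice and from 0.527 to 0.636 in the Prlr+/- mice, without overlap (exact permutation test, two-sided p = 0.0286, the smallest that 35 splits of the mice can give). It was the one of 10 transcripts compared among the members not chosen by value whose groups were apart, beside 4.43% of all transcripts with a mean of at least 0.5 TPM, and its share of NOS3 did not separate the groups (exact permutation test, p = 0.314). The other transcript, NM_008713.4, overlapped.

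NOS3 stands beside other endothelial RNA. All 13 endothelial markers tested had log2 fold changes below 0, with a median of -0.23, but 0 were called (lowest limma adjusted p = 0.607) and 4 (PECAM1, CDH5, TIE1 and ESAM) were lower without overlap, beside 3.11% of all genes. VWF among the 13 had means of 0.656 scaled TPM in the βPrlR+/- mice and 0.395 in the Prlr+/- mice. It reached the level tested only through the βPrlR+/- mice, so its direction is not independent of the filter. The summed level of the endothelial markers, led by PLVAP, EMCN and KDR, was 225 to 267 scaled TPM in the βPrlR+/- mice and 189 to 232 in the Prlr+/- mice, and none of the 14 was at 0. Islet RNA is a mixture, so fewer cells of a type and less RNA per cell cannot be told apart, and the part of endothelial content in the NOS3 values was not tested.

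NOS2, the inducible synthase of activated macrophages and cytokine-treated β-cells, was near the bottom of the measurable range. It had 0.0751, 0.0047, 0.0177 and 0.0274 scaled TPM in the βPrlR+/- mice, compared with 0.0456, 0.0897 and 0.0675 in the Prlr+/- mice, and the groups overlapped (exact permutation test, two-sided p = 0.171). Of 4 listed transcripts 1 was above 0. With no depth in the values, such levels cannot be given a counting error.

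**Figure D2:**
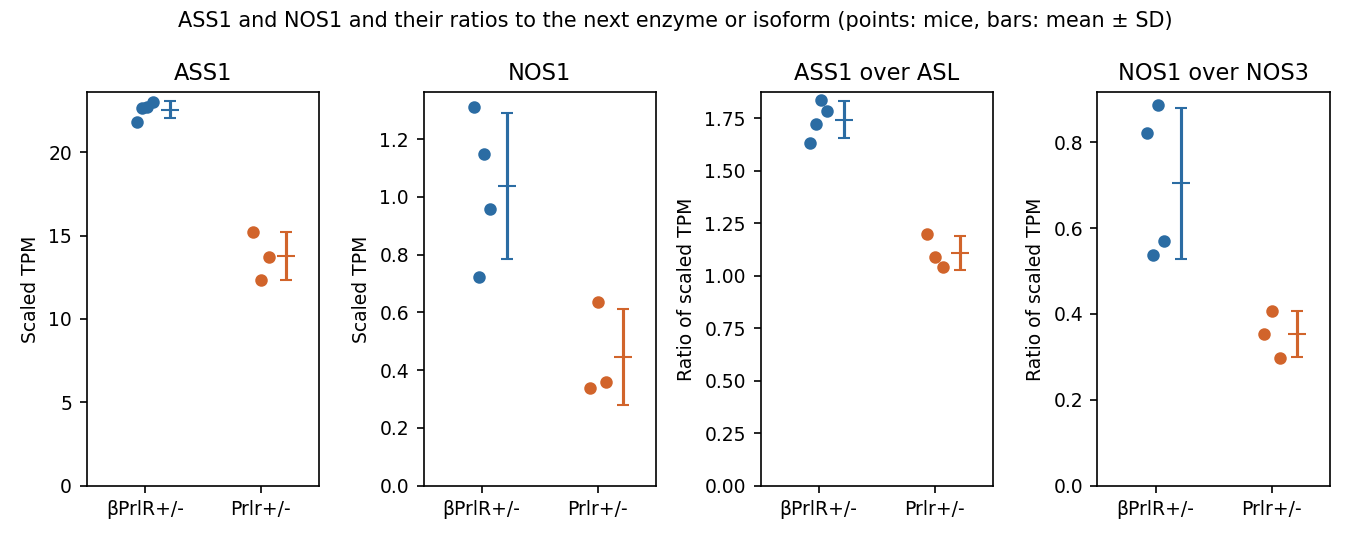
ASS1 and NOS1 in scaled TPM, and the ratios ASS1 over ASL and NOS1 over NOS3, with 1 point per mouse and the mean ± SD of each group (4 βPrlR+/- and 3 Prlr+/- mice; axes start at 0). The ratios run from 1.63 to 1.84 against 1.04 to 1.20, and from 0.539 to 0.888 against 0.299 to 0.406; ASS1 and NOS1 were chosen for being lower.

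ARG1, the cytosolic arginase of liver and macrophages, had 16.3, 9.17, 13.5 and 10.8 scaled TPM in the βPrlR+/- mice, compared with 12.4, 12.9 and 11.6 in the Prlr+/- mice. The Prlr+/- mice lay inside the spread of the βPrlR+/- mice. The log2 fold change was 0.01 with a standard error of 0.17 and a 95% interval of -0.39 to 0.41 (limma, adjusted p = 0.9999). Its spread within βPrlR+/- mice was wide, with a coefficient of variation of 25.1%, against 2.29% for ASS1 in the same mice. The macrophage markers, summed over 13 genes led by C1QA, C1QB and C1QC, were 106, 53.7, 60.0 and 40.5 scaled TPM in βPrlR+/- mice 1 to 4 and 73.8, 84.6 and 64.5 in the Prlr+/- mice, and the acinar markers were 17970, 2036, 18030 and 6067 and then 5653, 15100 and 7816. βPrlR+/- mouse 1 was highest in ARG1 and in the macrophage sum, and βPrlR+/- mouse 2 was lowest in ARG1 and in the acinar sum. The other extremes did not match: βPrlR+/- mouse 4 was lowest in the macrophage sum and βPrlR+/- mouse 3 highest in the acinar sum. The part of either cell type in ARG1 was not tested. No macrophage marker was at 0, and 0 of 9 tested were called.

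ARG2, the mitochondrial arginase, was far lower, at 0.430, 0.250, 0.741 and 0.504 scaled TPM in the βPrlR+/- mice, compared with 0.435, 0.346 and 0.569 in the Prlr+/- mice. The groups overlapped (exact permutation test, two-sided p = 0.857). ARG1 exceeded it 18.2 to 37.9 times within a mouse, and the groups overlapped in that ratio too.

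DDAH2, of the dimethylarginine dimethylaminohydrolase family, had 2.96, 2.48, 2.77 and 2.48 scaled TPM in the βPrlR+/- mice, compared with 2.45, 2.25 and 2.81 in the Prlr+/- mice. The groups overlapped, and the log2 fold change was -0.07 with a standard error of 0.09 and a 95% interval of -0.27 to 0.14 (limma, adjusted p = 0.9999). DDAH1, its paralog, had 0.228, 0.208, 0.110 and 0.170 in the βPrlR+/- mice, compared with 0.165, 0.204 and 0.151 in the Prlr+/- mice (exact permutation test, two-sided p = 0.886). DDAH2 exceeded DDAH1 11.0 to 25.2 times in every mouse, so it was the main form at the RNA level in both groups. Enzyme activity was not measured. The DDAH1 transcript NM_026993.3 held 0% to 43.4% of the DDAH1 value in the βPrlR+/- mice and 49.6% to 100% in the Prlr+/- mice, but the whole gene stayed at or below 0.228 scaled TPM and this share was not taken as a result.

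SLC7A2, a carrier of arginine, lysine and ornithine, had 41.7, 40.6, 65.0 and 45.5 scaled TPM in the βPrlR+/- mice, compared with 50.2, 40.2 and 43.5 in the Prlr+/- mice. βPrlR+/- mouse 3 stood above the other six, which lay close together in both groups. The log2 fold change was -0.09 with a standard error of 0.17 and a 95% interval of -0.48 to 0.31 (limma, adjusted p = 0.9999), and without βPrlR+/- mouse 3 it was 0.06. Its relative SLC7A1, the widely expressed arginine carrier, was lower, and SLC7A2 exceeded it 4.85 to 7.06 times in each mouse.

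SLC7A2 was the member with a choice between abundant transcripts. NM_001044740.2 and NM_007514.3 each have 12 exons, share 9 of them base for base, differ at the ends of the first and last, and each carry a seventh exon of their own, wholly coding, which the other lacks. These are printed because each is a wholly coding exon that the other transcript lacks. They come from the GENCODE annotation of GRCm38, plus strand, 5′ to 3′, with capitals at bases that have no identical partner when both are aligned.
NM_001044740.2 exon 7, chr8:40908056-40908195: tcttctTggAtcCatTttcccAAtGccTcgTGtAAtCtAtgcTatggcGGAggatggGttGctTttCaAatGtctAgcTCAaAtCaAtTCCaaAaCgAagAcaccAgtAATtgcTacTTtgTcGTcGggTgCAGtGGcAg
NM_007514.3 exon 7, chr8:40908398-40908534: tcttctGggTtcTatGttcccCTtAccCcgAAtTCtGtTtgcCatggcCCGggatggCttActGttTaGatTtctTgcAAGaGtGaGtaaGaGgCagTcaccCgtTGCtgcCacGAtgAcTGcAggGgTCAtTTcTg
The exons are 140 and 137 bases long, and 84 of 140 aligned positions (60.0%) are identical. NM_001044740.2 had 25.6, 26.2, 35.7 and 26.1 scaled TPM in the βPrlR+/- mice, compared with 34.6, 26.6 and 28.0 in the Prlr+/- mice. NM_007514.3 had 12.7, 12.0, 24.4 and 16.8 and then 10.3, 11.8 and 13.0. Both were present in every mouse and NM_001044740.2 was the more abundant in all 7. As shares of SLC7A2, NM_001044740.2 made up 59.6% ± 4.28 (SD, n = 4) in the βPrlR+/- mice and 66.5% ± 2.23 (SD, n = 3) in the Prlr+/- mice, and the ranges met only at 64.6% and 64.5% (exact permutation test, two-sided p = 0.0857, 1 of 9 transcript shares compared). NM_007514.3 made up 33.6% ± 4.18 (SD, n = 4) and 26.6% ± 5.16 (SD, n = 3) (exact permutation test, two-sided p = 0.143). Neither difference passed the threshold. How the authors' assignment divided reads that both transcripts could have given is not visible in the values.

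**Figure D3:**
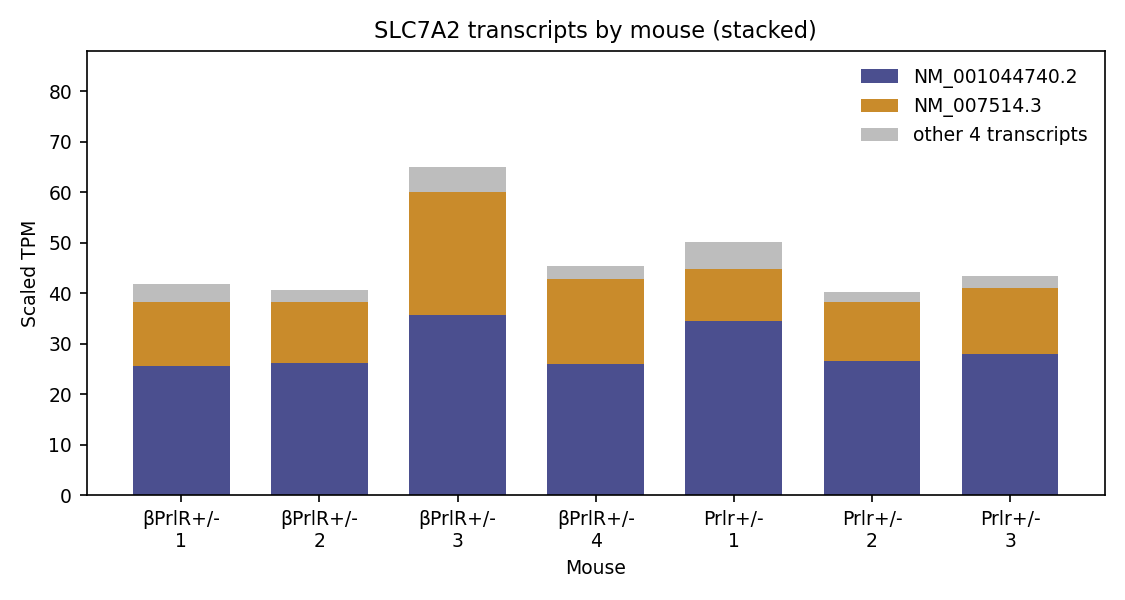
SLC7A2 in scaled TPM for each of the 7 mice, stacked by transcript: NM_001044740.2, NM_007514.3 and the other 4 together. NM_001044740.2 holds 54.9% to 68.9% of each bar, and βPrlR+/- mouse 3 is the tallest at 65.0.

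Around these members, 58 other genes of the pathway were tested in 5 lists, and 0 passed the test (lowest limma adjusted p = 0.694, 0.0674% of all genes called). Log2 fold changes were below 0 for 21 and above 0 for 37, with a median of 0.03, and 48.3% of all genes tested were below 0. Groups did not overlap for 6 lower and 1 higher, beside 3.11% of all genes lower and 4.95% in either direction. The 6 lower genes are named here with values and none was called.

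Genes supplying arginine and citrulline (10 tested) had a median of 0.05, with 4 below 0 and 6 above. SLC7A3, another arginine carrier, had means of 0.963 ± 0.174 and 0.574 ± 0.135 scaled TPM (SD, n = 4 and 3) and a log2 fold change of -0.32, and SLC7A7, a light chain for arginine export, had 1.53 ± 0.189 and 1.09 ± 0.152 and -0.27. Both were lower in each Prlr+/- mouse and both had a limma adjusted p of 0.962. SLC3A2, the heavy chain that SLC7A7 pairs with, had 88.4 ± 6.21 and 101 ± 12.9 and overlapped. CPS1 and OTC, the mitochondrial enzymes that make citrulline in liver and gut, did not exceed 0.0100 scaled TPM in any mouse.

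Genes using arginine and ornithine (16 tested) had a median of 0.07, with 3 below 0 and 13 above. The widest differences, in PYCR1 (0.34), the polyamine enzymes SRM (0.22) and AMD1 (0.19), all overlapped between the groups. Arginine methylation genes (8 tested) hold the methyltransferases behind the methylated arginine inhibitors, and AGXT2, an aminotransferase that breaks such inhibitors down. Their median was 0.01 and none was apart, the widest being AGXT2 at -0.22, PRMT2 at 0.21 and PRMT5 at 0.05.

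Genes for the cofactor and partners of the synthases (13 tested) had a median of 0.07, with 3 below 0 and 10 above. NOSTRIN, which carries NOS3 away from the membrane, had 7.94, 8.19, 8.72 and 7.85 scaled TPM in the βPrlR+/- mice, compared with 5.94, 7.30 and 5.80 in the Prlr+/- mice. The groups were apart, with a log2 fold change of -0.33 and a standard error of 0.09 (limma, adjusted p = 0.694). GCH1, which makes the cofactor tetrahydrobiopterin, had 51.3 ± 6.12 and 61.2 ± 5.16 scaled TPM (0.26) and overlapped, as did its regulator GCHFR (-0.24).

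Genes answering nitric oxide (11 tested) had 8 log2 fold changes below 0 and 3 above, with a median of -0.08 that turned to 0.06 without Prlr+/- mouse 2. PDE2A, a phosphodiesterase stimulated by cyclic GMP, had 2.95, 4.73, 4.20 and 3.93 scaled TPM in the βPrlR+/- mice, compared with 2.55, 2.10 and 2.73 in the Prlr+/- mice, a log2 fold change of -0.51 with a standard error of 0.14 (limma, adjusted p = 0.715). The subunits of the nitric oxide receptor, GUCY1A3 and GUCY1B3, were also lower in each Prlr+/- mouse, at 2.14 ± 0.274 against 1.70 ± 0.157 and 3.68 ± 0.389 against 2.95 ± 0.267, with log2 fold changes of -0.22 and -0.24. PDE9A, at 0.230 to 0.395 and 0.0979 to 0.193, was also apart but under the level tested. As with NOS3, these differences stand beside the endothelial markers given above, whose part in them was not tested.

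**Figure D4:**
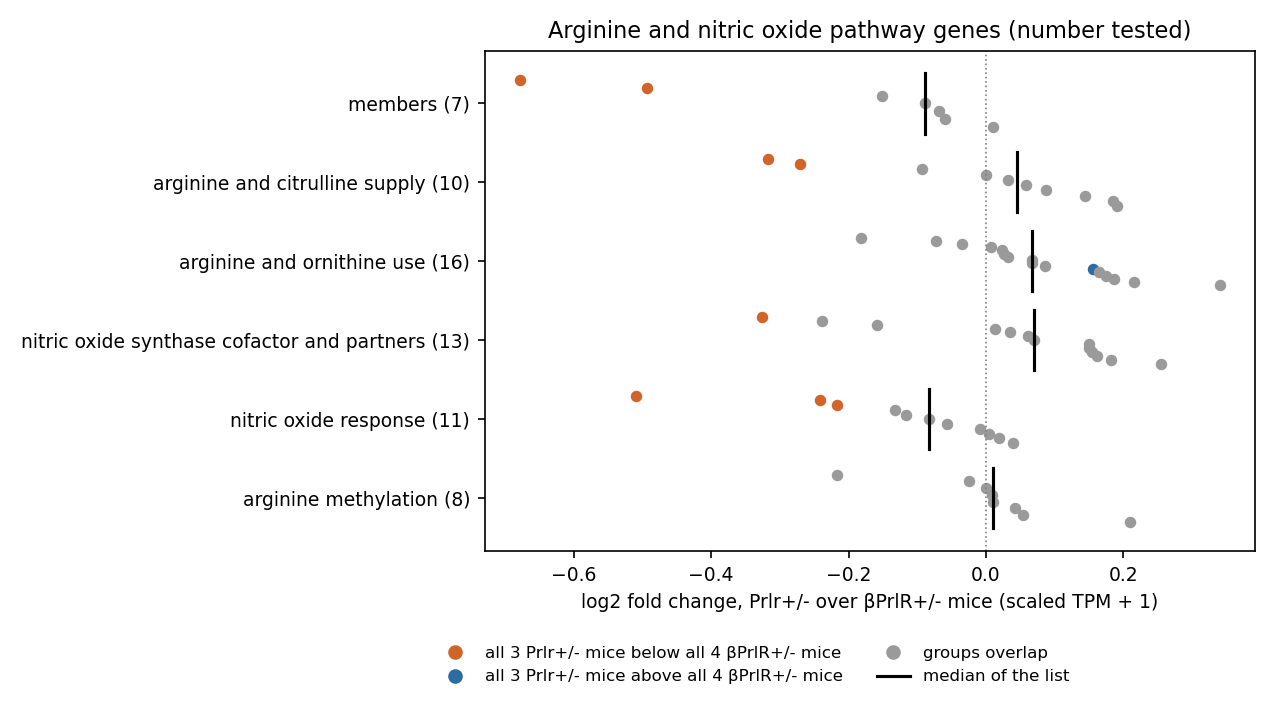
Log2 fold change (Prlr+/- over βPrlR+/- mice, on scaled TPM + 1) of each gene tested, by list, with a black bar at the list's median and colour for groups that do not overlap. The list medians other than that of the members run from -0.08 to 0.07, and the 2 leftmost points of the members are ASS1 and NOS1.

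The genes whose pattern over the 7 mice was most like that of ASS1, by Pearson's r of log2(scaled TPM + 1), were SYT17 (0.984), STMN2 (0.982), ACOT7 (0.981), SNCG (0.979) and SYT1 (0.978). With the group means removed these were 0.62, 0.57, 0.74, 0.56 and 0.73, so much of the likeness is the difference between the groups that ASS1 was selected on. For NOS1 they were MAPK11 (0.987), PLEKHG1 (0.984), HGF (0.980), ST6GALNAC2 (0.977) and ID3 (0.968), and these kept 0.95, 0.94, 0.97, 0.92 and 0.89 with the group means removed. ASS1 and NOS1 had 0.76 with each other over the 7 mice and -0.63 with the group means removed. The highest of many values over 7 mice are a description only, and the mice share their group and scaling.

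ASS1 and NOS1 stand beside neuron markers. The 14 in a list the study chose on these same mice, led by UCHL1, TUBB3 and SNCG, were all lower without overlap (3.11% of all genes), 4 were called (0.0674% of all genes), and they summed to 113 to 131 scaled TPM in the βPrlR+/- mice and 74.5 to 81.7 in the Prlr+/- mice, which is not independent evidence of direction. The 4 calls (STMN2, PRPH, SNCG and THY1, limma) depended on the mice used: 2 were left without βPrlR+/- mouse 3, 1 without βPrlR+/- mouse 1 or Prlr+/- mouse 2, and 0 without βPrlR+/- mouse 2 or 4 or Prlr+/- mouse 1 or 3, or with no filter on low genes. Their log2 fold changes stayed negative in all 13 alternatives, at -0.94 to -0.78 for STMN2, -0.93 to -0.70 for PRPH, -0.92 to -0.74 for SNCG and -0.91 to -0.68 for THY1. Of 12 neuron markers tested outside that list, 8 were below 0 and 4 above with a median of -0.14, 0 were called, 3 were apart and lower (NPY, GAP43 and SLC18A2) and 1 apart and higher (ELAVL4), beside 4.95% of all genes apart in either direction, and the sums over 16, led by VIP, SNAP25 and MAP2, were 299.8 to 476 and 279 to 334. The RNA came from whole islets, so which cells gave the values of these markers is not known. Glial markers (8 tested, led by MBP) had a median of -0.24, 0 called, and sums of 27.6 to 29.9 and 23.8 to 30.6. CDH19 (means 0.882 and 0.354), FABP7 (1.01 and 0.473) and S100B reached the level tested only through the βPrlR+/- mice, where they are high. The glial median is therefore not independent of the filter. S100B was lower without overlap, with means of 0.718 ± 0.186 (SD, n = 4) and 0.372 ± 0.0943 (SD, n = 3) scaled TPM, and 3.11% of all genes were lower without overlap. ELAVL3, CHAT and the glial GFAP were also lower without overlap but under the level tested. No neuron or glial marker was at 0 in all mice, and the part of nerve content in the ASS1 and NOS1 values was not tested.

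Markers of the other islet cells went different ways and none was called. The 10 β-cell markers, led by INS, INS1 and IAPP, had a median of 0.30, and 5 α-cell markers, led by GCG and TTR, had -0.22. Acinar markers (10 tested, led by CELA2A, CELA1 and CELA3B) had 0.11, macrophage markers 0.01, and fibroblast and pericyte markers (7 tested, led by RGS5, DCN and PDGFRB) -0.12. The acinar direction depended on the scale. By group means of scaled TPM, CELA2A, CELA1 and CELA3B differed by -14.65%, -17.49% and -16.06% in the Prlr+/- mice. BHLHA15 and RBPJL differed by 21.2% and 9.37%. Targets of p53, a factor that DNA breaks activate, were also counted. Of 2 tested from the study's own list, CCNG1 and PHLDA3, both were lower without overlap (3.11% of all genes) and PHLDA3 was called (limma, log2 fold change -1.25, adjusted p = 0.0243). The study chose that list on these same mice, so it is not independent evidence of direction. The call of PHLDA3 held in 6 of 13 alternatives, over all of which its adjusted p ran from 0.00815 to 0.123, and of the fits that leave out 1 mouse only the one without βPrlR+/- mouse 3 kept it, while its log2 fold change stayed between -1.63 and -1.19 in all 13. EDA2R was apart too but under the level tested. Of 17 others, led by EI24, BAX and BTG2, 14 were below 0 and 3 above with a median of -0.22, and 0 were called. CDKN1A, BAX and POLK among them were apart and lower, beside 3.11% of all genes. CDKN1A, which halts the cell cycle, had 48.8 ± 14.3 scaled TPM (SD, n = 4) in the βPrlR+/- mice against 23.6 ± 7.89 (SD, n = 3), with a log2 fold change of -1.02 and a standard error of 0.27 (limma, adjusted p = 0.723). ASS1 and NOS1 were lower in the same mice, and the part of Cre and tamoxifen in their values cannot be told apart from genotype.

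**Figure D5:**
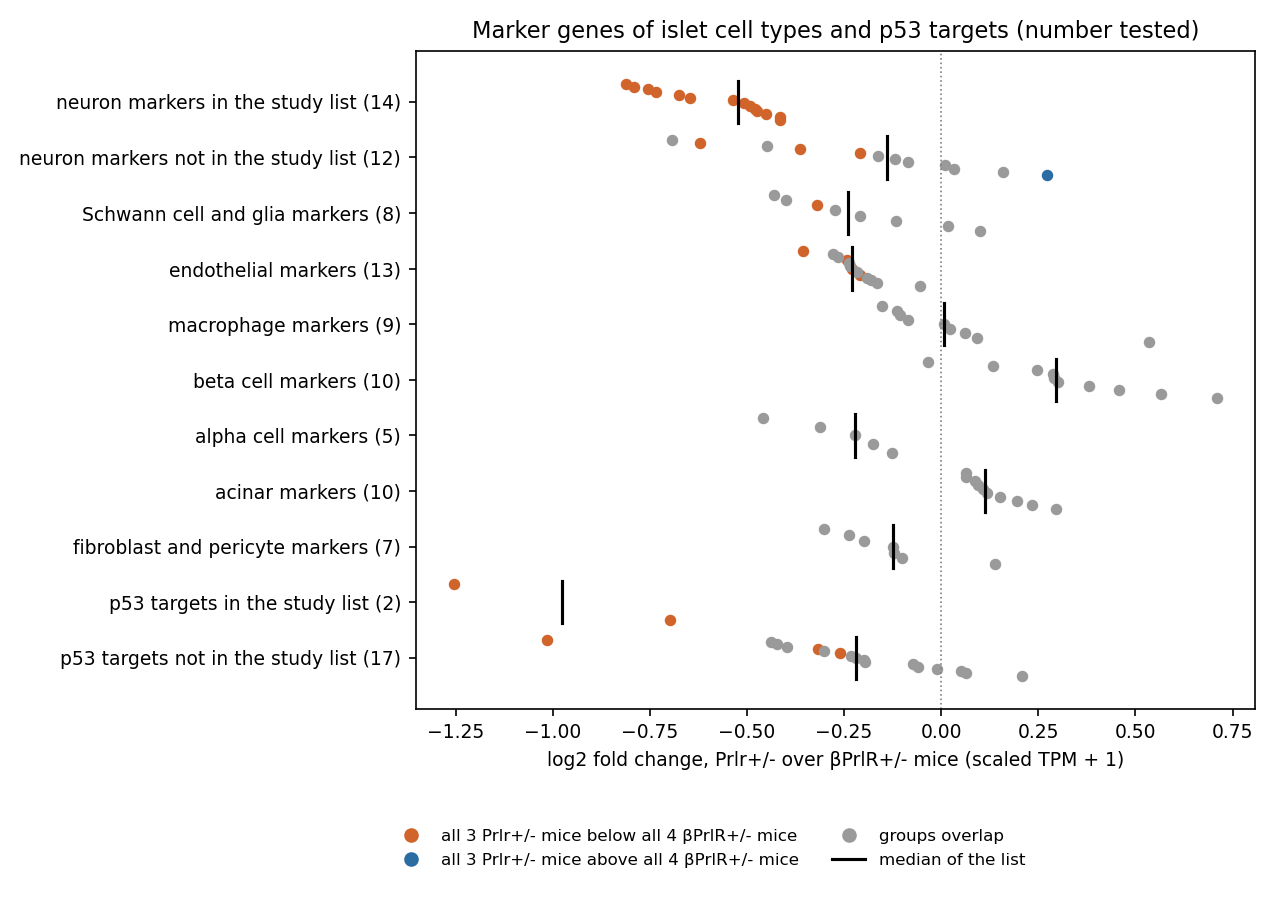
Log2 fold change (Prlr+/- over βPrlR+/- mice, on scaled TPM + 1) of each marker gene tested, by cell type and for p53 targets, with a black bar at the list's median and colour for groups that do not overlap. Endothelial markers tested all lie below 0 with a median of -0.23, though VWF among them was tested only through its level in the βPrlR+/- mice. Neuron markers in the study's list lie lowest of the cell type lists at -0.52.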

How the data were processed

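Libraries of poly(A) islet RNA were strand-specific, and reads were assigned by the authors to mouse RefSeq transcripts with Kallisto 0.42.4 (version from the submitters' processing notes). FPKM is the unit named in the methods, but the deposited values sum to 1000000 in each mouse, so the authors' values were handled as TPM, for 107384 transcripts and 34082 genes. TPM keep no depth, so no counting interval is given, and neither a count test nor Sleuth, which needs the reads, could be run. No per-sample column was left unused.

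TPM were divided by median-ratio size factors. Genes with a mean of at least 0.5 TPM were compared by limma 3.58.1 (R 4.3.3) on log2(scaled TPM + 1), with a mean-dependent variance, Benjamini-Hochberg adjustment over 14840 genes and a threshold of 0.05. The added 1 understates changes of low genes. Single genes were compared by two-sided exact permutation tests over 35 splits, with a smallest p of 0.0286. Nothing says more of the replicates than that each is a mouse, so p-values measure the spread between these mice. The model was tested on simulated data.

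The members and lists were chosen with earlier results of these data known. The rule for named genes took all members, the genes of each pathway list that were called, apart or among the 3 widest, the 3 most abundant of each marker list, and the 5 genes most like ASS1 and NOS1. Some genes that the rule takes are not reported here. The endothelial, neuron, glial and p53 list genes named as apart or called, EDA2R and PDE9A were named after their values were seen. Of the lists, 1 gene of the synthase partners, 1 macrophage and 1 acinar marker were not found by name in the table. Promoter and exon sequences came from RefSeq (GRCm38.p6) and GENCODE (GRCm38); the build behind the deposited values is not given in the sources used here. Figures were drawn with matplotlib 3.10.9 in Python 3.11.15. The alternatives were leaving out each mouse, robust limma, a pseudocount of 0.1, no filter, a floor of 0.5 TPM in each single mouse, upper-quartile scaling and unscaled TPM.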

Additional observations from a re-analysis of the deposited data

How the results depend on the processing

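None of the 5 members tested and not chosen by their values was called under any of the 13 alternatives, and their median log2 fold change stayed between -0.20 and -0.02. NOS2 and DDAH1 were tested in 1 alternative, the one with no filter, and ARG2 in 2, and none of these was called. ASS1 ran from -0.82 to -0.61 and NOS1 from -1.07 to -0.43 (NOS1 was left out by the filter of 0.5 TPM in every mouse). Without scaling, which shifts the median over all genes to -0.12, ASS1 was -0.82, ARG1 turned to -0.12 and the median of arginine methylation moved to -0.11. Upper-quartile scaling turned ARG1 to -0.014, and a pseudocount of 0.1 moved NOS1 to -1.07. Leaving out single mice, ARG1 ran from -0.11 to 0.14, being below 0 without βPrlR+/- mouse 2 or 4 or Prlr+/- mouse 2, SLC7A2 ran from -0.174 to 0.059, being above 0 without βPrlR+/- mouse 3, and ASL ran from -0.103 to 0.0018, being above 0 without Prlr+/- mouse 2. NOS3 stayed below 0 but ran from -0.25 without Prlr+/- mouse 2 to -0.06 without Prlr+/- mouse 1, and DDAH2 from -0.13 without Prlr+/- mouse 3 to -0.015 without Prlr+/- mouse 2. Medians of lists near 0 changed sign: without scaling, arginine and citrulline supply turned to -0.04, arginine and ornithine use to -0.07 and the cofactor and partners to -0.06, and without Prlr+/- mouse 2 the supply list turned to -0.01 and the nitric oxide response to 0.06. Arginine methylation also turned below 0 with upper-quartile scaling and without βPrlR+/- mouse 2 or Prlr+/- mouse 1.

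The count of all genes called, 10, was 18 with a pseudocount of 0.1 and 4 with no filter. Leaving out each mouse in turn gave 2 to 13: 2 without βPrlR+/- mouse 4, and 5 without βPrlR+/- mouse 1, Prlr+/- mouse 1 or Prlr+/- mouse 2. The cause was not tested. No paired analysis was possible because the mice carry no shared number. Without depth, levels under 0.5 TPM (NOS2, ARG2, DDAH1) have an unknown counting error, and 7 mice limit each interval.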
